A study of Arabidopsis thaliana with 12 samples.

Results

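The 10 genes described here make, export, control or remove the plant defence hormone salicylic acid, and were followed in Arabidopsis thaliana plants expressing a rust fungus effector. They are ICS1, ICS2, EDS5, PBS3, EPS1, SARD1, CBP60G, CBP60A, DMR6 and DLO1, and make up 10 of the 32833 loci counted. They were chosen by locus from the known pathway, with earlier results of these data known. All 10 passed the filter on low counts, which left 19090 loci in the tests. The plants were stable transgenic lines in the Col-0 ecotype. The Mlp37347 line expressed a fusion of the candidate effector Mlp37347 of the poplar rust Melampsora larici-populina with green fluorescent protein (GFP), the Mlp124499 line expressed the same kind of fusion with the candidate effector Mlp124499, and the Control line expressed GFP alone. All 3 lines also carried BAR. Each had 4 RNA-seq libraries from pooled aerial tissue of plants grown on soil under 16 h of light at 22 °C and harvested 15 days after germination. Neither the transgene promoter nor the number of independent insertions is stated in the sources used here, so an effect of the effector and one of the particular line cannot be told apart. Transgene transcripts were not analysed here.

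In Arabidopsis most salicylic acid made on infection comes from chorismate in the plastid. Isochorismate synthase, encoded by ICS1 and ICS2, converts chorismate to isochorismate, EDS5 exports it to the cytosol, PBS3 joins it to glutamate, and the product breaks down to salicylic acid by itself or with the help of EPS1. The related transcription factors SARD1 and CBP60g switch on ICS1 and several of its partners in immunity, whereas CBP60a restrains them. The oxygenases DMR6 and DLO1 hydroxylate salicylic acid, lower its level and thereby damp resistance.

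Total counts per library were 12368262 to 24483245 in Mlp37347, 10813288 to 14733894 in Mlp124499 and 6645703 to 37378917 in Control. Control 1, the shallowest, had the lowest alignment rate, 57.6% of trimmed reads, and the rate was 88.0% to 95.5% in the remaining 11. Mlp37347 1, 2 and 3 had a mate inner distance of 110 to 115 bp and the other 9 libraries 50 to 84 bp, so this distance and the line cannot be told apart outside Mlp37347 4. Libraries within a line were not equally far apart: Mlp37347 1, 2 and 3 differed from each other by a chi-square per degree of freedom of 2.82 to 6.27 and from Mlp37347 4 by 154 to 208. Mlp124499 1 and 2 differed by 6.94 and the other pairs of that line by 40.6 to 132. The labels do not say that replicates were separate plant pools, so p-values measure the spread between these libraries, which may in part be technical. Leaf markers (RBCS1A, RCA, LHCB2.1 and PSBO1) were all present and together reached 34700 to 37900 CPM (counts scaled to a common library size) in Mlp37347, 24200 to 34600 in Mlp124499 and 18000 to 35200 in Control. Summed root markers stayed at 0.362 to 0.889, 0.619 to 1.30 and 0 to 2.64 CPM and flower markers at 1.5 to 2.62, 1.75 to 3.87 and 1.5 to 3.72 CPM in Mlp37347, Mlp124499 and Control. Guard cell markers summed to 56.5 to 75.8 CPM in Mlp37347, 134 to 226 in Mlp124499 and 96.1 to 167 in Control, and phloem companion cell markers to 511 to 634, 393 to 566 and 330 to 485 CPM, and the part of either in the results was not tested. The guard cell markers did not move together. In Mlp37347, Mlp124499 and Control KAT1 averaged 29.2, 117 and 71.8 CPM and FAMA 23, 23.9 and 31.7 CPM. MYB60 averaged 9.93, 19.4 and 18.1 CPM and EPF1 3.04, 2.71 and 2.42 CPM. In whole tissue, fewer cells of a type and less RNA per cell cannot be told apart.

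Levels below are CPM after TMM scaling of the deposited counts, and fold changes come from 1 edgeR quasi-likelihood fit over all 19090 loci with Benjamini-Hochberg adjustment and a threshold of 0.05. In Mlp37347 6 of the 10 genes fell and 0 rose relative to Control, where 8.61% of all loci tested passed, 5.42% lower and 3.19% higher. In Mlp124499 7 fell and 1 rose, where 4.27% of all loci passed, 2.71% lower and 1.56% higher. ICS1, EDS5, PBS3, SARD1, CBP60G and CBP60A fell in both comparisons, which share the Control libraries, and DLO1 was the additional one in Mlp124499. ICS2 was the gene that rose. The median log2 fold change of the 10 genes was -1.76 in Mlp37347 and -1.52 in Mlp124499, beside 0.01 and -0.01 over all loci tested. The libraries did not overlap Control for 7 of the 10 genes in Mlp37347, where 19.2% of all loci had no overlap, and for 8 in Mlp124499, where 11% had none.

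These calls depended on how the most similar libraries were counted. When Mlp37347 1, 2 and 3 were summed as 1 sample and Mlp124499 1 and 2 as another, edgeR called 0 of the 10 genes in either comparison, with 7 lower in Mlp37347 and 8 lower and 1 higher in Mlp124499 at an unadjusted p under 0.05. That fit had 2 samples of Mlp37347, 3 of Mlp124499 and 4 of Control and called 6 loci in all for Mlp37347 and 11 for Mlp124499. The share of all loci at an unadjusted p under 0.05 is not given here. Counts at that p, here and below, therefore have no background beside them. With each library left out in turn, 5 to 7 genes were lower in Mlp37347 and 3 to 8 in Mlp124499. Over the same fits 2.08% to 11.1% of all loci were lower in Mlp37347 and 0.765% to 5.62% in Mlp124499. In Mlp124499 the number lower was 4 without Control 1, 3 without Control 3, 4 without Mlp124499 1 and 3 without Mlp124499 2. The share of all loci lower also dropped in these fits, to 1.81%, 1.02%, 0.966% and 0.765%, from 2.71% with all libraries.

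**Figure D1:**
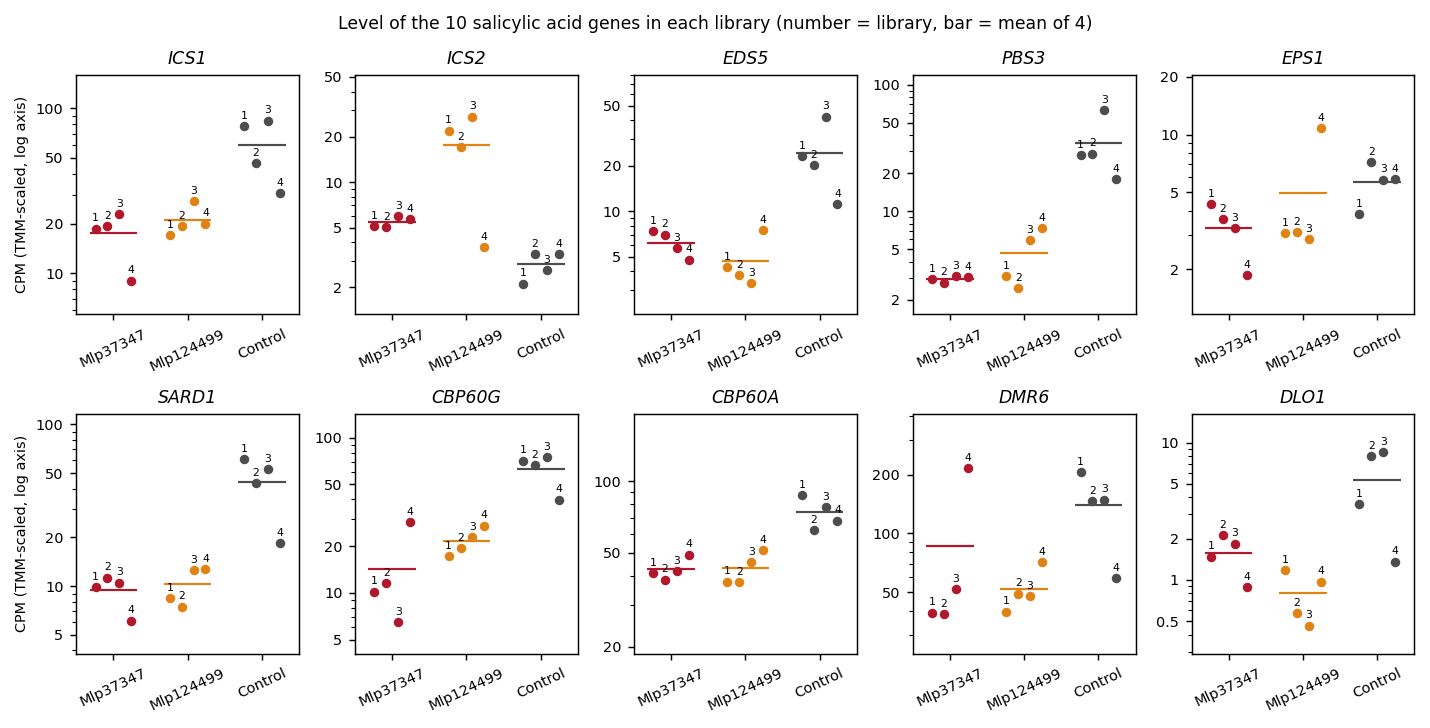
Level of each of the 10 genes in the 12 libraries, in TMM-scaled CPM on a log axis, for Mlp37347, Mlp124499 and Control; numbers are the libraries and bars the mean of 4. ICS1, EDS5, PBS3, SARD1, CBP60G and CBP60A lie below every Control library in all 8 effector libraries, and ICS2 lies above every Control library in all 8.

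ICS1 (AT1G74710), the main isochorismate synthase of defence, stood at 18.7, 19.3, 22.8 and 9.05 CPM in Mlp37347 1 to 4, at 17.1, 19.4, 27.3 and 20.0 CPM in Mlp124499 1 to 4 and at 78.3, 46.6, 84.1 and 30.5 CPM in Control 1 to 4. Every effector library lay below the lowest Control library, Control 4, and Mlp37347 4 was the lowest of all. ICS1 fell in Mlp37347 by -1.77 ± 0.34 on the log2 scale (± SE here and below, edgeR adjusted p = 0.00863). It fell in Mlp124499 by -1.51 ± 0.34 (edgeR adjusted p = 0.0264). The second call was lost without Control 1, Control 3, Mlp124499 1 or Mlp124499 2 (edgeR adjusted p = 0.0682, 0.0942, 0.0994 and 0.102, within 3.25e-05 to 0.503 over all other settings tried).

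ICS2 (AT1G18870), the second isochorismate synthase gene, moved the other way. It stood at 5.08, 5.01, 5.93 and 5.68 CPM in Mlp37347, at 22.0, 17.1, 27.3 and 3.70 CPM in Mlp124499 and at 2.12, 3.32, 2.62 and 3.31 CPM in Control. Mlp124499 1, 2 and 3 were the 3 highest libraries, while Mlp124499 4 was just above the highest Control library. ICS2 rose in Mlp124499 by 2.60 ± 0.45 on the log2 scale (edgeR adjusted p = 0.00792), and with Mlp124499 4 as the only library of its line the value was 0.40 ± 0.35 (edgeR adjusted p = 0.722, within 9.59e-07 to 0.722 over all settings). In Mlp37347 it was 0.91 ± 0.44 higher on the log2 scale without passing the threshold (edgeR adjusted p = 0.219), and it passed without Mlp124499 4 (0.0117, within 0.00737 to 0.501 over all settings). Per kilobase of exon, ICS1 stood 3.55, 3.71, 3.70 and 1.53 times as high as ICS2 in Mlp37347, 0.748, 1.10, 0.963 and 5.22 times in Mlp124499 and 35.5, 13.5, 30.9 and 8.85 times in Control. The ratio was therefore lower in all 8 effector libraries than in any Control library, and near 1 in Mlp124499 1, 2 and 3. The longest stretch that the exons of the 2 genes share is 23 nt, shorter than the 100 nt reads. ICS2 shares 87 bp of exon with AT1G18871 on the opposite strand, whose mean level was 0.0258 CPM in Mlp37347, 0.0194 CPM in Mlp124499 and 0 CPM in Control.

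**Figure D2:**
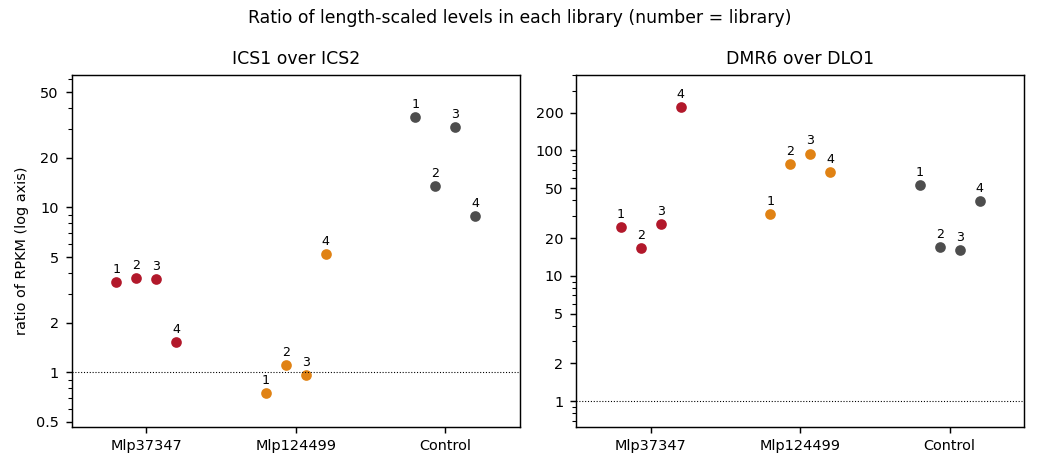
Ratio of RPKM (CPM per kilobase of exon) of ICS1 over ICS2 and of DMR6 over DLO1 in each library, on a log axis, with the dotted line at a ratio of 1. The ICS1 ratio is 1.53 to 3.71 in Mlp37347, 0.748 to 5.22 in Mlp124499 and 8.85 to 35.5 in Control, and the DMR6 ratio reaches 224 in Mlp37347 4.

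The DNA just upstream of the 2 isochorismate synthase genes is shown because they moved in opposite directions in Mlp124499, beside that of EDS5 and SARD1, which fell together with ICS1. Each line gives the 250 bases before the annotated gene start, read 5′ to 3′ on the gene's strand from the TAIR10.1 assembly with RefSeq gene starts. Capitals mark matches on either strand to TTGACC or TTGACT (the W-box bound by WRKY factors), GAAATT (the core of the sequence bound by SARD1 and CBP60g), TGACG (bound by TGA factors) and CGCGT (bound by CAMTA factors).
ICS1, chr1:28070045-28070294, plus strand: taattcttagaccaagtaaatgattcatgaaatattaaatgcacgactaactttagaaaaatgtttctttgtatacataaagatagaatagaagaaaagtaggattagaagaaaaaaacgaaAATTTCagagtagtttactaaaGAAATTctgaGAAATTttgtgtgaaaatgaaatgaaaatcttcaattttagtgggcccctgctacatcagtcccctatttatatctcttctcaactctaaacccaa
ICS2, chr1:6515123-6515372, plus strand: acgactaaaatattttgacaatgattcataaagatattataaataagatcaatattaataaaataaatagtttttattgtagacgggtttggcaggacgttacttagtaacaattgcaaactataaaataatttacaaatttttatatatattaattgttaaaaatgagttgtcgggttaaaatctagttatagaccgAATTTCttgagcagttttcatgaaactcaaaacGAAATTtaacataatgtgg
EDS5, chr4:18185187-18185436, plus strand: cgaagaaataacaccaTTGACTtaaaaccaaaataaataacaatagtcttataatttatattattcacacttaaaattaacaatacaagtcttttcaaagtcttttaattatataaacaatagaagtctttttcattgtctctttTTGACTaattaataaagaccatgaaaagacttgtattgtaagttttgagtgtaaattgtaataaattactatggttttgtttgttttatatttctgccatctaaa
SARD1, chr1:27749249-27749498, minus strand: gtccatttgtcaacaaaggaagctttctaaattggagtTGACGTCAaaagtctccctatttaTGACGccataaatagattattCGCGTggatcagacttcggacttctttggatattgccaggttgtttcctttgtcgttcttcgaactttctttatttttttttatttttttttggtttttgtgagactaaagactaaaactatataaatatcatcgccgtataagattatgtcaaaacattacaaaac
The ICS1 window held 3 GAAATT matches, starting 128, 106 and 96 bases before the gene start, and the ICS2 window held 2. The bases around these matches were not compared, and the part of the matches in the 2 changes was not tested. Of the 10 windows 3 held GAAATT (ICS1, ICS2 and CBP60A), as did 32.2% of 27438 protein-coding genes. The W-box was found in 1 of the 10, EDS5, and in 28.4% of all, TGACG in 2 of the 10 and in 18.6% of all, and CGCGT in 1 of the 10, SARD1, and in 6.87% of all. The SARD1 run TGACGTCA counts as TGACG on both strands. PBS3, EPS1, CBP60G and DMR6 had none of these letters in the window, which says nothing about sites farther away.

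EDS5 (AT4G39030), the transporter that carries isochorismate out of the plastid, stood at 7.36, 7.02, 5.68 and 4.79 CPM in Mlp37347, at 4.26, 3.77, 3.33 and 7.52 CPM in Mlp124499 and at 23.1, 20.2, 42.3 and 11.2 CPM in Control. No effector library reached the lowest Control library. EDS5 fell by -1.95 ± 0.37 on the log2 scale in Mlp37347 (edgeR adjusted p = 0.00844) and by -2.35 ± 0.38 in Mlp124499 (edgeR adjusted p = 0.00599). It shares 213 of 2261 bp of exon with AT4G39040 on the opposite strand, which had 68.2 CPM on average in Mlp37347, 43.3 in Mlp124499 and 57.1 in Control, and whether strand was used in counting is not given in the sources used here.

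PBS3 (AT5G13320), which conjugates isochorismate with glutamate, showed the largest fall of the 10 genes in both comparisons. Its level was 2.92, 2.74, 3.09 and 3.02 CPM in Mlp37347, 3.08, 2.46, 5.96 and 7.39 CPM in Mlp124499 and 27.9, 28.6, 63.4 and 18.1 CPM in Control. The 4 Mlp37347 libraries were almost level, with an SD of 0.153 CPM around 2.94, whereas Control spread from 18.1 to 63.4 CPM. In Mlp37347 the log2 fold change was -3.55 ± 0.43, an 11.7-fold fall (edgeR adjusted p = 0.00112). In Mlp124499 it was -2.86 ± 0.41, a 7.24-fold fall (edgeR adjusted p = 0.00434).

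EPS1 (AT5G67160), the acyltransferase-family enzyme that speeds release of salicylic acid from the glutamate conjugate, did not pass in either comparison. It stood at 4.36, 3.62, 3.26 and 1.86 CPM in Mlp37347, at 3.08, 3.12, 2.87 and 10.8 CPM in Mlp124499 and at 3.85, 7.16, 5.84 and 5.88 CPM in Control. The Mlp37347 range overlapped Control, and within Mlp124499 libraries 1, 2 and 3 lay below Control and library 4 above it. The log2 fold change was -0.79 ± 0.43 in Mlp37347 (edgeR adjusted p = 0.275) and -0.19 ± 0.43 in Mlp124499 (edgeR adjusted p = 0.908). Without Mlp37347 4 and Mlp124499 4 together EPS1 fell in Mlp124499 by -0.88 on the log2 scale (edgeR adjusted p = 0.0204, within 0.000838 to 1 over all settings).

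**Figure D3:**
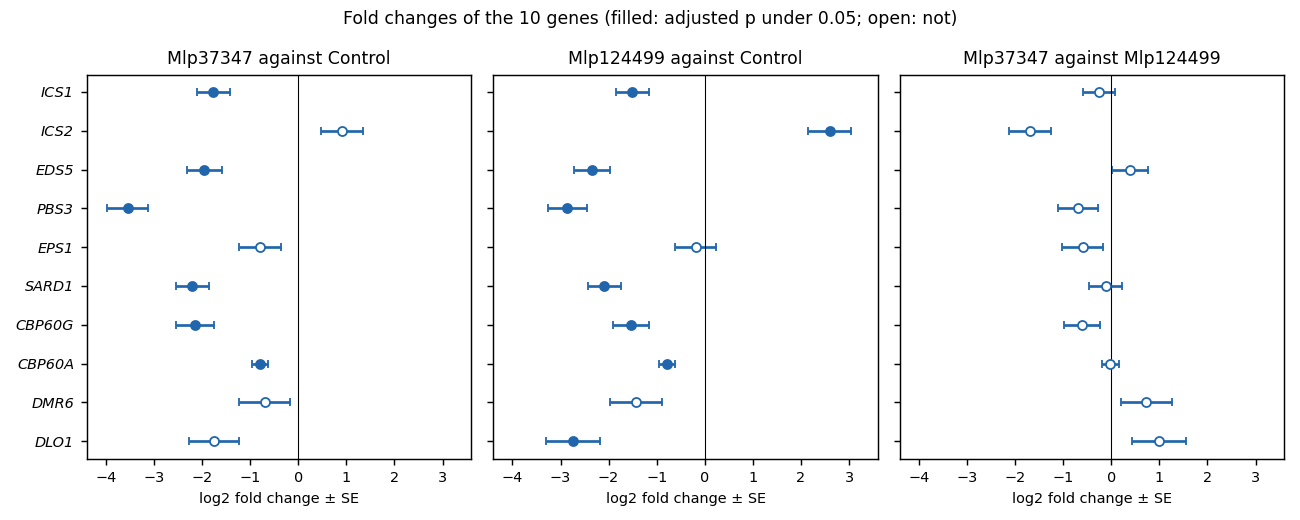
Log2 fold change with its SE for the 10 genes in each of the 3 comparisons, with filled points for an adjusted p under 0.05. PBS3 lies farthest below 0 against Control, at -3.55 in Mlp37347 and -2.86 in Mlp124499, ICS2 at 2.60 in Mlp124499 is the filled point above 0, and the comparison of the effector lines has no filled point.

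SARD1 (AT1G73805) and CBP60G (AT5G26920), the activators of ICS1, fell in both lines. SARD1 stood at 9.86, 11.3, 10.5 and 6.12 CPM in Mlp37347, at 8.44, 7.46, 12.5 and 12.7 CPM in Mlp124499 and at 61.1, 43.5, 52.8 and 18.4 CPM in Control. All 8 effector libraries were below Control 4, the lowest Control library. Its log2 fold change was -2.21 ± 0.34 in Mlp37347 (edgeR adjusted p = 0.00297) and -2.09 ± 0.34 in Mlp124499 (edgeR adjusted p = 0.00640). SARD1 shares 441 of 2397 bp of exon with GIP2 (AT1G73790) on the opposite strand, which stood at 0.105 CPM in Mlp37347, 0.401 CPM in Mlp124499 and 0.340 CPM in Control on average.

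CBP60G stood at 10.2, 11.6, 6.51 and 28.7 CPM in Mlp37347, at 17.2, 19.5, 22.8 and 27.1 CPM in Mlp124499 and at 71.0, 66.1, 74.8 and 39.9 CPM in Control. The groups did not overlap, and Mlp37347 4 was the highest library of its line for CBP60G although it was the lowest for ICS1, EDS5 and SARD1. The log2 fold change was -2.15 ± 0.39 in Mlp37347 (edgeR adjusted p = 0.00643) and -1.54 ± 0.38 in Mlp124499 (edgeR adjusted p = 0.0397). The call in Mlp124499 was lost without Control 1, 2 or 3, without Mlp37347 1 or 2 and without Mlp124499 1, 2 or 3 (edgeR adjusted p = 0.0589 to 0.141, within 2.22e-06 to 0.644 over all settings). Per kilobase of exon, CBP60G stood at 1.08, 1.07, 0.643 and 4.87 times SARD1 in Mlp37347, 1.89 to 2.72 times in Mlp124499 and 1.21 to 2.26 times in Control.

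CBP60A (AT5G62570), the relative that restrains the pathway, fell less but with little spread. It stood at 40.8, 38.4, 41.8 and 49.0 CPM in Mlp37347, at 37.7, 37.4, 45.5 and 51.3 CPM in Mlp124499 and at 87.7, 62.4, 77.9 and 68.3 CPM in Control. All effector libraries lay below all Control libraries. The fall was 1.74-fold in Mlp37347 (-0.80 ± 0.17 on the log2 scale, edgeR adjusted p = 0.0132) and 1.72-fold in Mlp124499 (-0.78 ± 0.17, edgeR adjusted p = 0.0222). The call in Mlp37347 was lost without Mlp37347 1, 2 or 3 (edgeR adjusted p = 0.0634, 0.0689 and 0.0581, within 6.09e-06 to 0.291 over all settings). That in Mlp124499 was lost without Control 1, Control 3, Mlp37347 1, Mlp37347 3, Mlp124499 1 or Mlp124499 2 (edgeR adjusted p = 0.0509 to 0.116, within 1.01e-05 to 0.623 over all settings).

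Per kilobase of exon, CBP60A stood 3.08, 2.55, 4.96 and 1.32 times as high as CBP60G in Mlp37347, 1.46 to 1.69 times in Mlp124499 and 0.955, 0.730, 0.805 and 1.32 times in Control. CBP60A was thus above CBP60G in every effector library and in Control 4, and below it in Control 1, 2 and 3. Relative to SARD1, the other activator, CBP60A was higher in every library, Control included. In Control 1 to 4 CBP60A stood at 29.4, 20.9, 26.1 and 22.9 RPKM, and SARD1 at 25.5, 18.1, 22 and 7.67 RPKM. The mean length-scaled levels were 14.2, 14.4 and 24.8 RPKM for CBP60A and 6.18, 9.39 and 27.3 RPKM for CBP60G in Mlp37347, Mlp124499 and Control.

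DMR6 (AT5G24530), the salicylic acid 5-hydroxylase, was the most abundant of the 10 genes per kilobase of exon, with 58.5 ± 58.7 RPKM in Mlp37347, 35.2 ± 9.23 in Mlp124499 and 95.1 ± 41.4 in Control (SD, n = 4). It stood at 39.3, 38.7, 51.7 and 216 CPM in Mlp37347, at 39.7, 49.1, 47.8 and 71.5 CPM in Mlp124499 and at 207, 147, 149 and 59.0 CPM in Control. Mlp37347 4 was the highest of all 12 libraries and the other 3 of that line lay below every Control library. DMR6 did not pass in Mlp37347 (-0.70 ± 0.54 on the log2 scale, edgeR adjusted p = 0.452) or in Mlp124499 (-1.43 ± 0.55, edgeR adjusted p = 0.193). Without Mlp37347 4 it fell in Mlp37347 by -1.66 (edgeR adjusted p = 0.00719, within 3.88e-06 to 0.975 over all settings) and in Mlp124499 by -1.38 (edgeR adjusted p = 0.0207, within 2.93e-05 to 0.781).

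DLO1 (AT4G10500), the salicylic acid 3-hydroxylase linked to leaf senescence, rested on few reads, with 108 reads in all in Mlp37347, 41 in Mlp124499 and 330 in Control. It stood at 1.48, 2.12, 1.84 and 0.887 CPM in Mlp37347, at 1.18, 0.574, 0.465 and 0.973 CPM in Mlp124499 and at 3.58, 8.01, 8.52 and 1.36 CPM in Control. All Mlp124499 libraries lay below Control, whereas Mlp37347 overlapped Control 4. DLO1 fell in Mlp124499 (-2.74 ± 0.56 on the log2 scale, edgeR adjusted p = 0.0165), a call lost without Control 2, Control 3, Mlp124499 2 or Mlp124499 3 (edgeR adjusted p = 0.0526, 0.0620, 0.0753 and 0.0564, within 8.79e-05 to 0.518 over all settings). In Mlp37347 it was -1.75 ± 0.52 without passing (edgeR adjusted p = 0.0551), and passed without Control 4 (0.0126, within 0.00142 to 0.298 over all settings).

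Between the 2 effector lines, 0 of the 10 genes passed in the direct edgeR test of Mlp37347 against Mlp124499, where 2.69% of all loci passed, 1.59% lower and 1.1% higher, and the libraries of the lines overlapped for all 10 (10.9% of all loci had no overlap). At an unadjusted p under 0.05 there was 1, ICS2, lower in Mlp37347 by -1.69 ± 0.43 on the log2 scale (edgeR adjusted p = 0.0601). DESeq2 called 1 gene lower, where it called 3.65% of all loci lower, and limma voom with sample weights called 2 lower, where it called 27% of all loci lower. ICS2 passed without Mlp37347 4 (edgeR adjusted p = 0.0348) and without Mlp124499 4 (0.000710), and CBP60G passed without Mlp37347 4 as well (log2 fold change -1.20, edgeR adjusted p = 0.0106, within 0.000225 to 0.929 over all settings). Adjusted p for ICS2 ran from 7.34e-07 to 0.649 over all settings. The values nearest to 0 were those of CBP60A at -0.02 ± 0.17 and SARD1 at -0.12 ± 0.34, and a missed threshold does not show that the lines are alike.

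Library 4 of each effector line stood apart in clock genes as well, and the time of day of harvest is not stated in the labels. Of 10 clock genes 1 fell and 4 rose in Mlp37347, where 5.42% of all loci were lower and 3.19% higher. In Mlp124499 0 fell and 3 rose, where 2.71% of all loci were lower and 1.56% higher. With both library 4s left out, 3 fell and 6 rose in Mlp37347, where 15.9% of all loci were lower and 16.5% higher, and 2 fell and 7 rose in Mlp124499, where 10.5% were lower and 8.99% higher. LHY, a transcription factor gene that peaks at dawn, stood at 22.0, 19.2, 24.1 and 92.6 CPM in Mlp37347, at 82.0, 91.7, 66.1 and 470 CPM in Mlp124499 and at 372 to 516 CPM in Control. Mlp124499 4 therefore lay within the Control range, and the other 7 effector libraries far below it. TOC1, an evening clock gene, stood at 15.9 CPM in Mlp124499 4 and at 160 CPM in Mlp37347 4, against 18.4 to 29.2 CPM in Control. ICS1, EDS5, PBS3, SARD1, CBP60G, CBP60A and DLO1 in Mlp124499 4 lay below every Control library, and the part of clock gene levels in these results was not tested. ICS2 at 3.70 CPM and EPS1 at 10.8 CPM in that library were instead above the highest Control values, 3.32 and 7.16 CPM.

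Used as the only library of its line, Mlp124499 4 gave log2 fold changes of -2.17 ± 0.63 for PBS3, -1.73 ± 0.60 for SARD1, -1.63 ± 0.62 for EDS5 and -1.52 ± 0.62 for ICS1. That fit assumed the single library to vary like the other groups, so its SE rests on their spread. A line with 1 library has no spread of its own, so values from such fits are effect sizes and not calls. Mlp37347 4, the 1 library of its line with a short mate distance, gave -3.49 ± 0.90 for PBS3, -2.81 ± 0.67 for SARD1, -2.70 ± 0.60 for ICS1 and -2.31 ± 0.74 for EDS5 in the same kind of fit. Its values for CBP60G, -1.11 ± 0.39, and DMR6, 0.65 ± 0.52, differed most from those of the full line.

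**Figure D4:**
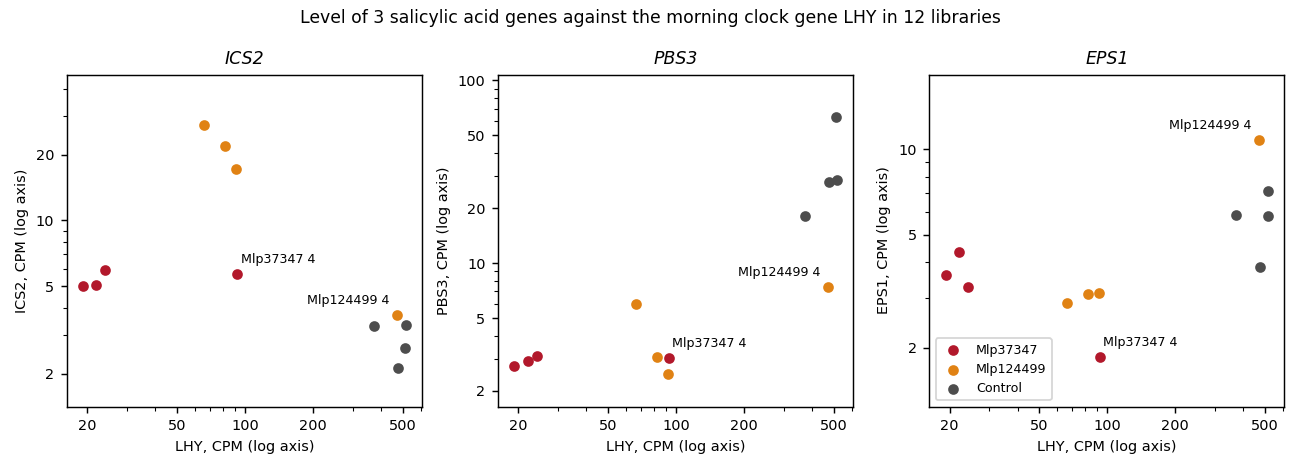
Level of ICS2, PBS3 and EPS1 against that of the clock gene LHY in the 12 libraries, both in CPM on log axes, colored by line. Mlp124499 4 shares the high LHY of Control at 470 CPM, where PBS3 is at 7.39 CPM, against 18.1 to 63.4 CPM in Control.

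Within Control, library 4 was the lowest for 7 of the 10 genes, ICS1, EDS5, PBS3, SARD1, CBP60G, DMR6 and DLO1, whereas ICS2 and EPS1 were lowest in Control 1 and CBP60A in Control 2. The median of the 10 genes on the log2 scale, relative to the Control mean, was -1.55, -1.56, -1.29 and -1.82 in Mlp37347, -1.73, -1.57, -1.42 and -1.32 in Mlp124499 and 0.15, 0.11, 0.34 and -0.82 in Control. Control 4 had the lowest of these medians in Control and, with 37378917 counts, was the deepest library of the series. Over the 12 libraries, the log2 levels of ICS1 and SARD1 had r = 0.959, those of PBS3 and SARD1 r = 0.939 and those of EDS5 and ICS2 r = -0.814. These are descriptions over libraries that share the 3 lines, so each r reflects the difference between lines as well as that within them.

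Genes next to the pathway were counted in the same fit, where 8.61% of all loci passed in Mlp37347 and 4.27% in Mlp124499. Of 12 genes of chorismate supply and use, 1 rose and 1 fell in Mlp37347 and 1 fell in Mlp124499, with median log2 fold changes of -0.10 and -0.34. ASA1 (AT5G05730), the anthranilate synthase subunit that takes chorismate toward tryptophan, fell in both, at 52.8 to 56.1 CPM in Mlp37347 and 36.1 to 56.7 CPM in Mlp124499 against 81.3 to 117 CPM in Control (log2 fold changes -0.88 ± 0.18 and -1.09 ± 0.18, edgeR adjusted p = 0.0129 and 0.00707). DHS2 (AT4G33510), of the first step of the shikimate pathway, rose in Mlp37347 with 188 to 202 CPM, against 78.2 to 108 CPM in Control (0.97 ± 0.18 on the log2 scale, edgeR adjusted p = 0.00745). Of 5 genes of the alternative route from phenylalanine 1 fell in each comparison, PAL1 in Mlp37347 (-1.13 ± 0.29 on the log2 scale, edgeR adjusted p = 0.0307) and PAL2 in Mlp124499 (-1.13 ± 0.24, 0.0187). PAL2 was also lower in Mlp37347 without passing (-0.72 ± 0.24 on the log2 scale, edgeR adjusted p = 0.0767). PAL1 did not pass in Mlp124499, at 76 CPM on average against 159 CPM in Control. The number lower in this list was 0 without Control 2, 3 or 4 or Mlp37347 1, 2 or 3 in the first comparison. In the second it was 0 without Mlp124499 1, 2 or 3. Over these fits 2.08% to 5.45% of all loci were lower in Mlp37347 and 0.765% to 1.48% in Mlp124499. The ASA1 call in Mlp37347 was lost without Mlp37347 1, 2 or 3.

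Of 10 genes that conjugate or methylate salicylic acid or reverse this, 8 were tested and 1 fell in each comparison, the glucosyltransferase gene UGT76B1 (AT3G11340). It stood at 1.65, 2.07, 1.67 and 1.86 CPM in Mlp37347, at 1.45, 1.48, 1.47 and 6.74 CPM in Mlp124499 and at 15.8, 29.0, 64.4 and 6.60 CPM in Control. Only Mlp124499 4 reached the Control range. The log2 fold change was -3.99 ± 0.70 in Mlp37347 (edgeR adjusted p = 0.00548) and -3.35 ± 0.68 in Mlp124499 (edgeR adjusted p = 0.0163), and the second call was lost without Control 3, Mlp124499 1 or Mlp124499 2. UGT74F2, which makes salicylic acid glucose ester, did not pass in either comparison (log2 fold change 0.16 ± 0.25 in Mlp37347 and -0.80 ± 0.25 in Mlp124499). Of 5 further calmodulin-binding protein genes related to CBP60a (AT5G57580, AT2G18750, AT2G24300, AT4G25800 and AT4G31000), edgeR called 0 in both comparisons. At an unadjusted p under 0.05, 2 were lower in Mlp37347 and 1 in Mlp124499, while DESeq2 called 1 and 0 and limma voom called 3 lower and 1 higher in Mlp37347 and 2 lower and 1 higher in Mlp124499. Over all loci limma voom called 29.5% lower and 27.6% higher in Mlp37347 and 20.1% lower and 16.1% higher in Mlp124499, and DESeq2 called 7.73% and 4.51% lower. Without Mlp37347 4, edgeR called 2 lower and 1 higher in Mlp37347, where 11.1% of all loci were lower and 11.6% higher.

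Of 12 upstream activators 11 were tested, and 3 fell and 1 rose in Mlp37347 while 3 fell in Mlp124499. EDS1 and PAD4, lipase-like partners that feed ICS1 expression in immunity, fell in both. PAD4 (AT3G52430) stood at 9.85 to 21.7 CPM in Mlp37347, 14.4 to 29.3 CPM in Mlp124499 and 37.1 to 112 CPM in Control (log2 fold changes -2.18 ± 0.39 and -1.88 ± 0.38, edgeR adjusted p = 0.00558 and 0.0169). WRKY46 fell in Mlp37347 (-3.43 ± 0.64 on the log2 scale, edgeR adjusted p = 0.00712) and WRKY28, an activator of ICS1, in Mlp124499 (-1.22 ± 0.26, 0.0219). WRKY46 was also lower in Mlp124499 without passing, at 6.19 CPM on average against 28.7 CPM in Control. WRKY28 did not pass in Mlp37347, at 7.53 CPM on average against 8.94 CPM in Control. CHE, a clock protein that also activates ICS1, rose in Mlp37347 with 61.4 to 78.0 CPM, against 30.5 to 39.0 CPM in Control (1.12 ± 0.16 on the log2 scale, edgeR adjusted p = 0.00178). Without Mlp37347 4, 6 activators were lower in Mlp37347, where 11.1% of all loci were lower. In Mlp124499 the number lower was 1 without Control 3 and 0 without Mlp124499 1 or 2, where 1.02%, 0.966% and 0.765% of all loci were lower. It was 5 without Mlp124499 4, where 5.62% of all loci were lower.

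Of 12 repressors of the pathway 2 fell in each comparison, NPR3, a salicylic acid receptor that restrains immune transcription, and WRKY70. WRKY70 is known both as a brake on salicylic acid synthesis and as an activator of its response genes. Its log2 fold change was -2.37 ± 0.34 in Mlp37347 (edgeR adjusted p = 0.00186) and -1.53 ± 0.33 in Mlp124499 (edgeR adjusted p = 0.0217). Without Mlp37347 4 the number of repressors lower was 8 in Mlp37347, where 11.1% of all loci were lower, and 5 in Mlp124499, where 4.28% were. It was 1 in Mlp37347 without Mlp37347 1 or 2, where 2.08% and 2.12% of all loci were lower. In Mlp124499 it was 1 without Control 2, Control 3, Mlp124499 1 or Mlp124499 2, where 1.44%, 1.02%, 0.966% and 0.765% were lower. With close libraries summed as described, 0 genes of any of these lists passed.

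Of 10 response genes 4 fell in Mlp37347, namely WRKY38, the NPR1-binding NIMIN1 and NIMIN2 and the glutaredoxin gene GRX480, with log2 fold changes of -3.06 ± 0.58, -3.42 ± 0.72, -2.19 ± 0.58 and -2.78 ± 0.61. They rested on few reads, in this order 28, 12, 119 and 68 in all in Mlp37347 and 211, 114, 504 and 407 in Control. The number of response genes lower was 1 without Mlp37347 1 and 2 without Mlp37347 2, where 2.08% and 2.12% of all loci were lower. In Mlp124499 edgeR called 0 of 10, with 7 lower at an unadjusted p under 0.05. DESeq2 called 5 lower (4.51% of all loci) and limma voom 8 (20.1% of all loci). By edgeR 3 were lower without Control 4 (2.84% of all loci) and 1 without Mlp37347 4 or Mlp124499 4 (4.28% and 5.62%). The median log2 fold change of the list was -2.14 in Mlp37347 and -1.61 in Mlp124499. The marker PR1 ranged widely within lines, with 26.5, 27.0, 36.3 and 1.95 CPM in Mlp37347, 12.4, 9.92, 16.9 and 8.43 CPM in Mlp124499 and 53.1, 24.9, 47.6 and 4.39 CPM in Control. The library with the lowest PR1 was number 4 in each line.

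**Figure D5:**
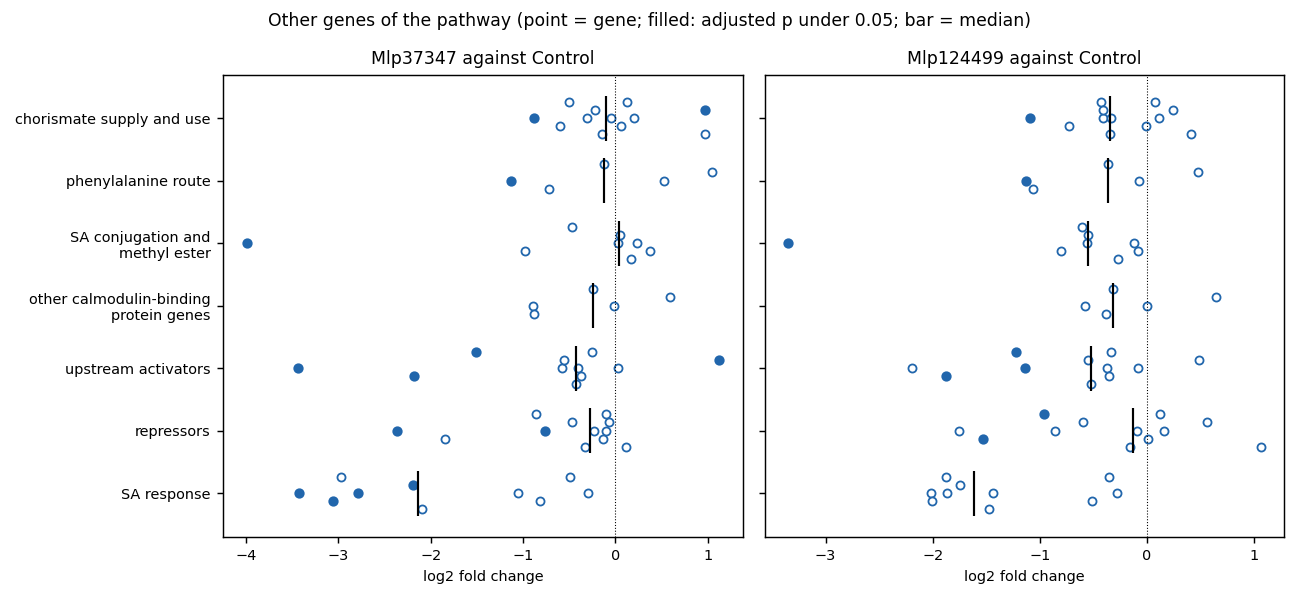
Log2 fold change of the tested genes of 7 pathway lists in Mlp37347 and in Mlp124499 against Control; each point is a gene, filled for an adjusted p under 0.05, and the bar is the list's median. Response genes have the lowest medians, -2.14 and -1.61, while the medians of the other lists lie between -0.56 and 0.04.

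Among 18204 other loci with a mean of at least 1 CPM, those whose log2 level over the 12 libraries was most like that of ICS1 were AT2G32140, annotated as a transmembrane receptor, with r = 0.979, PAD4 with r = 0.974, the cysteine-rich receptor-like kinase genes CRK15 and CRK36 with r = 0.972 and 0.964, and AT1G09932, a phosphoglycerate mutase family gene, with r = 0.963. Those most like PBS3 were AT1G78410, a VQ motif protein gene, with r = 0.985, CRK34 with r = 0.983, the anthranilate synthase beta subunit gene ASB1 with r = 0.983, Hsp70-2 with r = 0.979 and PUB54 with r = 0.978. All of these 10 loci fell in both comparisons, with log2 fold changes of -3.80 to -1.09 in Mlp37347 and -2.89 to -0.97 in Mlp124499. They were picked for this likeness, so their falls are a description.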

How the data were processed

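Deposited counts were whole read-pair counts per locus in 12 libraries. Per the series' design text, the authors prepared stranded mRNA libraries from 100 ng of total RNA, trimmed the 100 nt paired reads with Trimmomatic, aligned them to TAIR10 with TopHat2 2.0.14 and counted overlaps with Ensembl Plants transcripts in R 3.2.5 in union mode. How strand and multiply aligned reads were treated is not given in the sources used here, so reads may be split, lost or counted more than once. Total counts were above the aligned read number in Control 1 (6645703 against 6578769), Mlp124499 3 (13144950 against 13122045) and Mlp124499 4 (14733894 against 14703575). They were below it in the remaining libraries, and the cause was not tested. The mate distances and aligned read numbers came from the authors' deposited library table.

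Counts were tested with edgeR 4.0.16 in R 4.3.3 (TMM, filterByExpr, quasi-likelihood, all 12 libraries in 1 fit). DESeq2 1.42.0 and limma 3.58.1 were alternatives, as were other scalings and filters, a replicate block, summing close libraries and leaving out each library. RPKM used union exon lengths of the TAIR10.1 RefSeq annotation, which also gave names and upstream sequences. The log2 levels behind correlations used a prior count of 2. The fitting was tested on simulated data. The members and lists were chosen with earlier results of these data known. Beyond the 10 members, the rule named up to 3 genes per list and comparison by adjusted p and the 5 loci most like ICS1 and PBS3. PR1, TOC1 and UGT74F2 were named after their values were seen where that rule did not name them.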

Additional observations from a re-analysis of the deposited data

Results flagged for a closer look

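DMR6 in Mlp37347 4 stood at 216 CPM, far above the 38.7 to 51.7 CPM of the other 3 libraries of its line. EPS1 in Mlp124499 4 stood at 10.8 CPM, far above the 2.87 to 3.12 CPM of the other 3. In each case the gap to the nearest library took up most of the range within the line, past the limit of Dixon's test for 4 values at the 95% level. Such a gap was looked for in 30 sets of 4 libraries and found in these 2, and chance alone gives it in about 1 set in 20.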

How the results depend on the processing

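Percentages below are the shares of all loci called in the same fit and direction. Against Control, the number of the 10 genes lower in Mlp37347 (6) was 0 with close libraries summed (0.0101%) and 5 to 7 with 1 library left out (2.08% to 11.1%). It was 7 by DESeq2 (7.73%) and with both library 4s left out (15.9%), and 9 by limma voom (29.5%). The number higher (0) was 1 by limma voom (27.6%), with only the 2 groups compared (3.52%) and with both library 4s left out (16.5%). It was 0 to 1 with 1 library left out (1.15% to 11.6%). In Mlp124499 the number lower (7) was 4 with a replicate block (1.18%), 0 with close libraries summed (0.0404%) and 3 to 8 with 1 library left out (0.765% to 5.62%). It was 9 by limma voom (20.1%) and with both library 4s left out (10.5%). The number higher there (1) was 0 with close libraries summed (0.0152%). Between the lines the number lower (0) was 1 with total-count scaling (2.85%) and by DESeq2 (3.65%). It was 2 by limma voom (27%) and with both library 4s left out (12.9%), and 0 to 2 with 1 library left out (0.45% to 7.2%). The fits with Mlp37347 4 or Mlp124499 4 alone were chosen after seeing the data. Log2 fold changes that changed sign between the lines were, by limma voom, ICS1 0.070, PBS3 0.017, EPS1 0.26, SARD1 0.35, CBP60A 0.089 and DMR6 -0.082, with both library 4s left out, EPS1 0.31, SARD1 0.14 and DMR6 -0.085, with Mlp37347 4 alone, CBP60G 0.40 and CBP60A 0.18, and with Mlp124499 4 alone, ICS2 0.53 and EDS5 -0.29. With 1 library left out they ran from -0.79 to 0.12 for EPS1, -0.26 to 0.025 for SARD1, -0.10 to 0.072 for CBP60A and -0.28 to 0.97 for DMR6. Against Control, EPS1 in Mlp124499 was 0.021 with close libraries summed, 0.96 with Mlp124499 4 alone and -0.87 to 0.029 with 1 library left out, and DMR6 in Mlp37347 was 0.65 with Mlp37347 4 alone. The cause was not tested. Same-numbered libraries deviated together with r of -0.386 to 0.0901, so the numbers were not taken as pairs, and in Mlp124499 the block left CBP60G, CBP60A and DLO1 short of the threshold (edgeR adjusted p = 0.0845, 0.063 and 0.0709). It took the loci lower and higher over all genes from 1035 and 609 to 566 and 236 in Mlp37347 and from 518 and 297 to 225 and 96 in Mlp124499. With total-count scaling the median log2 fold change of all loci was -0.193 in Mlp37347 and -0.066 in Mlp124499 against Control, beside 0.011 and -0.007 with TMM. Among the 10 genes depth limits DLO1 most, with 41 reads in all in Mlp124499.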
